A study of Mus musculus with 1 sample.

Results

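The levels of 10 smooth muscle contractile genes, Acta2, Actg2, Tpm1, Tpm2, Myh11, Myl9, Mylk, Tagln, Cnn1 and Des, were described across the cells of a mouse testis preparation. The genes were taken by symbol, and all 10 were found among the 27998 genes listed in the count matrix. The preparation came from wild-type C57BL/6 pups at postnatal day 8. Equal numbers of cells from 3 mice had been pooled into 1 library, in which THY1+ spermatogonia selected on magnetic beads were spiked with unselected testis cells. The shares of cell types in the library depend on that procedure. A library from Zscan2 knockout testes was also part of the study and was not analysed here.

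Smooth muscle contracts when calcium switches on myosin light chain kinase, which phosphorylates the regulatory light chain of myosin and lets the myosin heads pull on actin filaments. Tropomyosins lie along the actin filament, calponin and transgelin bind it, and desmin filaments tie the contractile units to one another. In the testis this machinery is best known from the peritubular myoid cells, flat cells that wrap each seminiferous tubule and move its contents, and from the pericytes and smooth muscle cells of vessel walls. Many of these genes are read by serum response factor with its partner myocardin, and the factor binds a short element called the CArG box.

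Acta2 encodes the alpha actin of vascular smooth muscle and lies at chr19:34241090-34255590 on the minus strand. Actg2, the gamma actin of visceral smooth muscle, lies at chr6:83512905-83536265. Tpm1 (chr9:67022590-67049406) and Tpm2 (chr4:43514711-43523765) encode the alpha and beta tropomyosins. Myh11 (chr16:14194535-14291372) encodes the smooth muscle myosin heavy chain and Myl9 (chr2:156775420-156781658) a regulatory light chain of that myosin. Mylk (chr16:34745210-35002420) encodes myosin light chain kinase, the enzyme that acts on Myl9 protein. Tagln (chr9:45929619-45936058) encodes transgelin, Cnn1 (chr9:22099216-22109630) calponin of the smooth muscle type, and Des (chr1:75360329-75368579) desmin. Coordinates are those of the GENCODE annotation on the GRCm38 assembly, which mm10, the build named by the submitters, also uses. No other gene overlapped a member on the same strand, and none of the 251 words of 50 bases at the end of the longest coding transcript of each member occurred in another gene, so that paralogs such as Actb did not share those bases. Genes on the opposite strand overlap Tagln, Des and Mylk, and the strand setting of the counting was not given in the sources used here.

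The boxes found in the members are shown because Acta2 and Myl9, the 2 genes that hold them, had unlike levels in stromal cells. RefSeq promoter windows on GRCm38.p6, from 250 bases before to 50 bases after the start of the transcript, were given for 7 of the 10 members. An exact CArG box, a run of A or T bases between a pair of C bases and a pair of G bases, was found in 1 member, Myl9, and in 1.81% of 27025 genes. With up to 1 mismatch in the A or T run it was found in 2 members, Acta2 and Myl9, and in 11.3% of all genes. Both strands were searched, and no other motif was sought. The capitals mark the box, read along the strand of the gene.
Acta2, chr19:34255438-34255467, 1 mismatch: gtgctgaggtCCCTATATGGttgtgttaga
Acta2, chr19:34255388-34255417, 1 mismatch: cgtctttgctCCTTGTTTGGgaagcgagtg
Myl9, chr2:156775293-156775322, exact: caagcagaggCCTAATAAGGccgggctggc
Myl9, chr2:156775355-156775384, 1 mismatch: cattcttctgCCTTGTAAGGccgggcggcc
A match of letters does not show that the element is bound. The windows of Cnn1, Des, Mylk, Tpm1 and Tpm2 held no match within 1 mismatch. Actg2, Myh11 and Tagln were not searched.

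The matrix held 970 cell barcodes and 11358045 UMIs, molecular identifiers that count captured RNA molecules near the end of a transcript. The depth per barcode ran from 2655 to 44915 UMIs (median 9115). After filtering, 920 cells were clustered with the 10 members left out of the clustering genes and of all marker lists. The resulting classes were 324 germ cells, 255 Sertoli-like, 186 stromal-like, 94 peritubular myoid-like and 35 macrophage-like cells, with 26 cells in a mixed cluster that was given no name. Levels are given as UMIs per 1000000 UMIs of the class (CPM), with a 95% exact Poisson interval, and ratios with an exact conditional binomial interval. Because there was 1 library of pooled mice, these intervals cover counting error only, no p-value was computed and no difference has a replicate check.

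The peritubular myoid-like class was named from 8 marker genes that are not members. Its cells expressed Csrp1 at 904 CPM, Pdlim3 at 760 CPM, Lmod1 at 228 CPM, Smtn at 82.4 CPM and Myocd at 18.9 CPM. Synpo2, Mustn1 and Pcp4l1 had 1, 2 and 13 UMIs and each was found in under 10% of the cells, so the name rests on 5 detected markers. None of the 8 was among the 10 leading genes of the cluster. The naming score, the level in the cluster less that in other cells, was 0.642 for this list and 0.450 for the stromal list. Myocd encodes myocardin, so the naming is not independent of the smooth muscle programme of the members. The list summed to 2015 CPM in this class, 386 CPM in stromal-like cells and 52.7 to 85.3 CPM in Sertoli-like, germ and macrophage-like cells. Stromal markers such as Dcn and Col1a1 summed to 11776 CPM in the stromal-like class, against 2095 CPM in the peritubular myoid-like class. The stromal-like class also held Leydig cell markers at 448 CPM in sum, each of the 6 in under 10% of its cells.

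The mixed cluster was led by Xcl1, Gzmc, Rgs5, Cd3g and Higd1b, that is, by T cell and pericyte genes together. Its cells were therefore described by the marker list with the most UMIs in each cell, a split chosen after the values were seen. This gave 10 pericyte-marker cells, 12 T cell-marker cells, 3 endothelial-marker cells and 1 cell with no marker UMI. The pericyte-marker cells held 895 of the 915 member UMIs of the cluster, against 9 in the T cell-marker cells and 11 in the endothelial-marker cells. All 7 pericyte markers were found in the pericyte-marker cells, at 5522 CPM in sum, against 90.5 CPM in peritubular myoid-like cells. Since these cells were picked by their UMIs of that list, its high sum in them is in part fixed by the choice. The myoid marker list was also found in them, at 1127 CPM in sum, against 2015 CPM in peritubular myoid-like cells. Of its 8 markers, 6 were in at least 10% of the pericyte-marker cells, a share that 1 of these 10 cells meets. The corresponding number in the peritubular myoid-like class was 5, so detection of this list does not set the groups apart. With 30 principal components, 10 cells of the mixed cluster joined the peritubular myoid-like, 13 the germ and 3 the stromal-like class.

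The 10 contractile genes together took up 16056.5 CPM in peritubular myoid-like cells, with an interval of 15769 to 16348, from 11889 UMIs. The sum was 14409 CPM (13480 to 15385) in the 10 pericyte-marker cells and 1146 CPM (1095 to 1199) in stromal-like cells. It was 401 CPM (375 to 428) in Sertoli-like cells, 126 CPM (117.2 to 136) in germ cells and 87.2 CPM (63.6 to 116.7) in macrophage-like cells. The summed level was thus 14.01-fold higher in peritubular myoid-like than in stromal-like cells (13.3 to 14.7) and 2.86-fold higher in stromal-like than in Sertoli-like cells (2.64 to 3.10). None of these intervals, which cover counting error only, overlapped. Per cell, the pericyte-marker and peritubular myoid-like cells did overlap, as given below. The largest germ cluster had 142 CPM (131 to 154). The smaller germ clusters had 84.3 CPM (69.0 to 102) and 93.0 CPM (62.3 to 134), and both intervals overlapped that of macrophage-like cells. With mitochondrial and ribosomal protein genes left out of the totals, the sum was 24597 CPM in peritubular myoid-like and 1729 CPM in stromal-like cells.

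**Figure D1:**
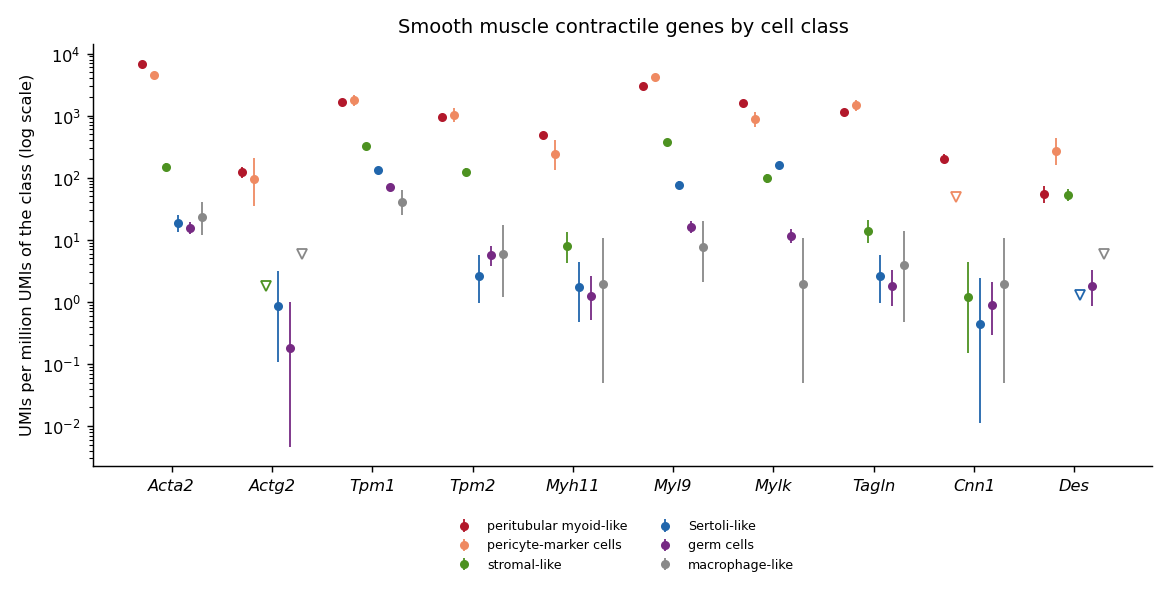
Level of each contractile gene in CPM (log axis) in 6 groups of cells, with 95% exact Poisson intervals for counting error. Open triangles mark genes without a UMI, placed at the limit that 3 counts would give. Acta2 reached 6808 CPM in the peritubular myoid-like and 151 CPM in the stromal-like class, whereas Des stood at 54.0 and 53.0 CPM.

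Acta2 was found in every peritubular myoid-like cell and was low in all classes without contractile markers. Its level was 6808 CPM (6621 to 6999) in peritubular myoid-like cells. The median cell had 40.5 Acta2 UMIs, the 10th and 90th percentiles were 20 and 116.4, and the highest cell had 180. Pericyte-marker cells had 4476 CPM (3965 to 5034) and stromal-like cells 151 CPM (133 to 171), a stromal level 2.22% of that in peritubular myoid-like cells. Macrophage-like, Sertoli-like and germ cells followed at 23.3 CPM (12.01 to 40.6), 18.3 CPM (13.2 to 24.7) and 15.7 CPM (12.5 to 19.3), and their intervals overlapped. Actg2 was found at 123 CPM in peritubular myoid-like cells (99.0 to 151), in 36 of 94 cells, and at 96.6 CPM in pericyte-marker cells (35.4 to 210). No Actg2 UMI was found in the 186 stromal-like cells, which allows a level of up to 1.83 CPM, and Actg2 was therefore, against that floor of 3 UMIs, at least 67.3-fold higher in peritubular myoid-like cells. The lower bound of the exact interval was 53.6-fold. Sertoli-like and germ cells had 2 and 1 Actg2 UMIs.

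The tropomyosins differed from one another outside the myoid class. Tpm1 stood at 1669 CPM (1577 to 1765) in peritubular myoid-like, 1771 CPM (1456 to 2134) in pericyte-marker and 325 CPM (298 to 353) in stromal-like cells. It was also found at 135 CPM (121 to 151) in Sertoli-like, 71.5 CPM (64.6 to 78.9) in germ and 40.7 CPM (25.2 to 62.2) in macrophage-like cells. Tpm1 was thus present in every class. Among germ cells, Tpm1 was at 87.8 CPM (78.8 to 97.5) in the cluster led by Nefm, Ret, Lhx1 and Gfra1 and at 27.8 CPM (19.4 to 38.7) in the cluster led by Esx1, Prss50 and Ly6k. Tpm2 was at 947 CPM (878 to 1019) in peritubular myoid-like cells, 1030.4 CPM (794 to 1316) in pericyte-marker cells and 124 CPM (107 to 142) in stromal-like cells. In Sertoli-like cells Tpm2 had 6 UMIs, or 2.61 CPM (0.959 to 5.69), so that its stromal level was 47.3-fold higher than its Sertoli level (21.4 to 130.4), while that of Tpm1 was 2.40-fold higher (2.08 to 2.76).

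Myosin itself and its light chain also had unlike gradients. Myh11 was at 494 CPM (445 to 548) in peritubular myoid-like cells, 241 CPM (135 to 398) in pericyte-marker cells and 7.92 CPM (4.22 to 13.5) in stromal-like cells, where 10 of 186 cells held its 13 UMIs. In Sertoli-like, germ and macrophage-like cells Myh11 had 4, 7 and 1 UMIs. Myl9 was at 3028 CPM (2904 to 3156) in peritubular myoid-like cells and at 4169.8 CPM (3677 to 4710) in pericyte-marker cells. It stood at 373 CPM (344 to 404) in stromal-like cells, 12.3% of the level in peritubular myoid-like cells, and 146 of 186 stromal-like cells had a Myl9 UMI. Sertoli-like cells had 76.7 CPM (65.8 to 88.9) of Myl9, germ cells 16.2 CPM (13.0 to 19.9) and macrophage-like cells 7.75 CPM (2.11 to 19.8).

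Mylk was higher in Sertoli-like than in stromal-like cells. It was at 1581 CPM (1492 to 1675) in peritubular myoid-like cells and 885 CPM (667 to 1153) in pericyte-marker cells. Sertoli-like cells came next, at 162 CPM (146 to 179), ahead of stromal-like cells at 97.5 CPM (82.9 to 114). The stromal to Sertoli log2 ratio was -0.73 with an interval of -1.01 to -0.46. Mylk RNA was therefore lower in stromal-like cells by less than the 2-fold mark used here, and the 3 Sertoli-like clusters had 134, 188 and 192 CPM. Counts are per gene and do not tell the 8 annotated transcripts of Mylk apart. Germ cells had 11.5 CPM (8.87 to 14.7) of Mylk and macrophage-like cells 1 UMI.

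The calponin family members were close to absent outside the contractile classes. Tagln was at 1149 CPM (1073 to 1229) in peritubular myoid-like cells and 1465 CPM (1180 to 1799) in pericyte-marker cells. It was at 14.01 CPM (8.88 to 21.0) in stromal-like cells and at 1.80 to 3.88 CPM in Sertoli-like, germ and macrophage-like cells. Cnn1 was at 203 CPM (171 to 238) in peritubular myoid-like cells, where 45 of 94 cells had a UMI. It had 2 UMIs in stromal-like cells, both in 1 cell, 1 UMI in Sertoli-like cells and 5 in germ cells. No Cnn1 UMI was found in the 10 pericyte-marker cells, which allows up to 48.3 CPM, so Cnn1 was, against that floor, at least 4.19-fold higher in peritubular myoid-like cells, with an exact lower bound of 3.37-fold. Since those 10 cells held 62114 UMIs in all, lower levels of Cnn1 were not detectable in them.

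Des did not follow the other members. Its level was 54.0 CPM (38.6 to 73.6) in peritubular myoid-like cells and 53.0 CPM (42.4 to 65.4) in stromal-like cells, a log2 ratio of 0.03 with an interval of -0.55 to 0.58. In pericyte-marker cells it was at 274 CPM (159 to 438), 5.07 times the level in peritubular myoid-like cells. Des had no UMI in 255 Sertoli-like cells, which allows up to 1.31 CPM, and was thus, against that floor, at least 40.6-fold higher in stromal-like cells, with an exact lower bound of 32.3-fold. Germ cells had 1.80 CPM (0.863 to 3.31) of Des and macrophage-like cells no UMI.

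Of the 10 members, 9 were at least 2-fold higher in peritubular myoid-like than in stromal-like cells, against 6.9% of the 8291 genes with at least 20 UMIs in both classes together. None was 2-fold lower, against 10.1% of genes, and the exception was Des. All 10 members passed that minimum of UMIs. Actg2, Myh11 and Cnn1 passed it through the peritubular myoid-like class alone, so their part of the count is given as a description. The median log2 ratio was 4.76 over the members, with Actg2 at its floor, and -0.08 over all genes tested. The log2 ratio was 7.38 for Cnn1 (5.50 to 10.44), 6.36 for Tagln (5.76 to 7.02), 5.96 for Myh11 (5.17 to 6.89) and 5.49 for Acta2 (5.31 to 5.68). It was 4.02 for Mylk (3.78 to 4.27), 3.02 for Myl9 (2.89 to 3.15), 2.94 for Tpm2 (2.71 to 3.17) and 2.36 for Tpm1 (2.21 to 2.51). The intervals of Acta2, Myh11, Tagln and Cnn1 all lay above that of Mylk, which lay above those of Myl9, Tpm2 and Tpm1, and the interval of Tpm1 lay below the rest of these. When the variable genes were chosen by vst, which moved 12 stromal-like cells to the peritubular myoid-like class and the mixed cluster to the stromal-like class, the log2 ratio was 4.36 for Acta2, 4.75 for Myh11 and 3.95 for Tagln.

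**Figure D2:**
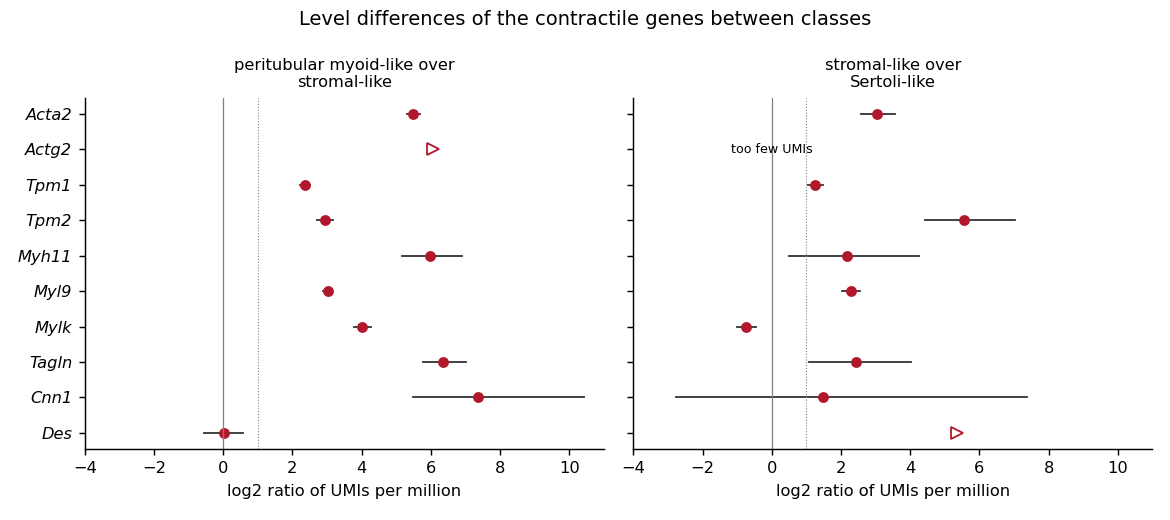
Log2 ratio of CPM for each contractile gene between peritubular myoid-like and stromal-like cells (left) and between stromal-like and Sertoli-like cells (right). Lines are 95% exact intervals for counting error, open triangles ratios against a floor of 3 UMIs where 1 class had none, and the dotted line marks 2-fold. On the left Des lies at 0.03 and Tagln at 6.36, and on the right Mylk lies at -0.73 and Tpm2 at 5.56.

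Between stromal-like and Sertoli-like cells, 7 members reached 20 UMIs and 6 of them were at least 2-fold higher in stromal-like cells, against 13.1% of 10169 genes, and none was 2-fold lower, against 26.4%. Those 6 were Acta2, Tpm1, Tpm2, Myl9, Tagln and Des, and Mylk was the other one tested. Tagln, Des and Tpm2 passed the minimum through the stromal-like class alone. Over germ cells, 8 of 8 members tested were at least 2-fold higher in stromal-like cells, against 20.5% of genes, and over macrophage-like cells 7 of 7, against 27.8%. None was 2-fold lower in either comparison, against 36.5% and 18% of genes. Against germ cells Tagln and Des passed the minimum through the stromal-like class alone. Myh11, with 13 UMIs in stromal-like and 7 in germ cells, passed it only with both classes together. Against macrophage-like cells all but Tpm1 passed it through the stromal-like class alone. Both counts are therefore given as a description. Of the 5 members tested between Sertoli-like and germ cells, 2 were at least 2-fold higher in Sertoli-like cells, against 24.2% of genes. These were Mylk, with a log2 ratio of 3.81 (3.43 to 4.22), and Myl9, with 2.24 (1.87 to 2.63). Tpm2 was the 1 member at least 2-fold lower in Sertoli-like cells, against 27.5% of genes, from 6 and 31 UMIs, and its interval of -2.65 to 0.19 included no difference. For Acta2 the ratio of Sertoli-like to germ cells was 0.22 (-0.34 to 0.77).

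The summed level of pericyte-marker cells was 0.897 times that of peritubular myoid-like cells, and the counts of members past 2-fold were close to the shares of all genes. Of the 10 members, 2 were at least 2-fold higher in peritubular myoid-like cells, against 19.7% of 4500 genes, and these were Myh11 and Cnn1. The log2 ratio of Myh11 was 1.03 with an interval of 0.29 to 1.89. Des was the 1 member at least 2-fold lower there, against 15.6% of genes, with a log2 ratio of -2.34 (-3.19 to -1.43). Myh11, Cnn1, Actg2 and Des had 15, 0, 6 and 17 UMIs in pericyte-marker cells. They passed the minimum of UMIs through the peritubular myoid-like class alone, so the counts for this pair are given as a description. Acta2 was 1.52-fold higher in peritubular myoid-like cells (1.35 to 1.72) and Mylk 1.79-fold higher (1.36 to 2.39), whereas the intervals of Tpm1, Tpm2 and Actg2 included no difference. Myl9 and Tagln were 1.38-fold and 1.27-fold higher in pericyte-marker cells. Over stromal-like cells, 8 of 8 members tested were at least 2-fold higher in pericyte-marker cells, against 17.3% of genes, and none was 2-fold lower, against 27.1%. The pericyte-marker cells were only 10, and their member share ran from 0.299% to 3.74% of UMIs per cell.

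Per cell, the contractile genes separated peritubular myoid-like cells from nearly all stromal-like, Sertoli-like, germ and macrophage-like cells, but not from pericyte-marker cells. They made up 1.46% of the UMIs of the median peritubular myoid-like cell, with a 10th percentile of 0.785%, a lowest cell at 0.147% and a highest at 4.58%. The median stromal-like cell had 0.0891%, the median Sertoli-like cell 0.0376% and the median germ cell 0.0101%. Of 186 stromal-like cells, 39 lay at or above the lowest peritubular myoid-like cell, but 1 reached the 10th percentile of that class. All 10 pericyte-marker cells lay at or above that lowest cell, and 5 of them reached the 10th percentile. At an equal depth of 5000 UMIs per cell, the median number of members detected was 8 in peritubular myoid-like, 2 in stromal-like, 1 in Sertoli-like and 0 in germ cells. At least 5 members were found in 89 of 90 peritubular myoid-like and 14 of 172 stromal-like cells, and in no Sertoli-like or germ cell. All 7 pericyte-marker cells at that depth had at least 5 members, with a median of 7.

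**Figure D3:**
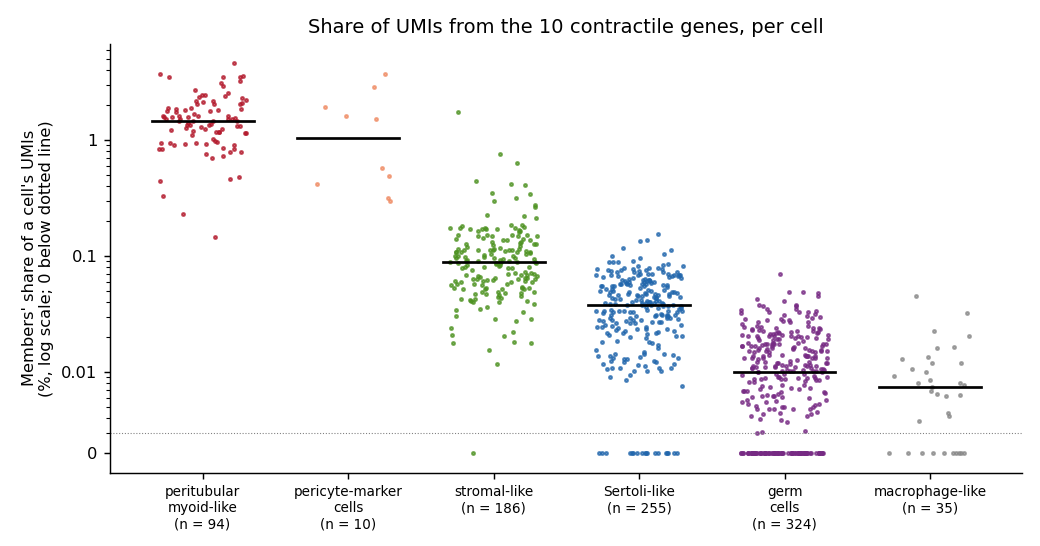
Share of the UMIs of each cell that came from the 10 contractile genes (percent, log axis, cells without such a UMI drawn below the dotted line), by group of cells. Each point is 1 cell and each bar the median, 1.46% in peritubular myoid-like and 0.0891% in stromal-like cells. The highest stromal-like cell, at 1.74%, lies between the median and the 75th percentile (2.01%) of peritubular myoid-like cells. That cell had no stromal marker UMI.

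Within the peritubular myoid-like class some pairs of members were correlated over cells and others were not. Over 90 cells at 5000 UMIs, Pearson's r of the 45 pairs of members had a median of 0.368 and ran from 0.022 for Myh11 with Cnn1 to 0.746 for Acta2 with Myl9. In 27 pairs r was above 0.3, in none of them with Des, whose highest r was 0.184. In 172 stromal-like cells the 28 pairs had a median r of 0.074, with 0.555 for Acta2 with Tagln, 0.473 for Acta2 with Tpm2 and 0.353 for Acta2 with Myl9 at the top. Tagln was found in 4 of these 172 cells, so its r rests on few cells. These are correlations over cells of 1 library, which share their depth and capture, and are given as a description.

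Graded levels in the stromal-like class took more than one form. At 5000 UMIs per cell, an Acta2 UMI was found in 23.3% of stromal-like cells (17.2% to 30.3%, exact binomial), in 7.23% of Sertoli-like cells, in 7.53% of germ cells and in 5.71% of macrophage-like cells. Without thinning the shares were 31.7%, 14.5%, 22.8% and 28.6%, at median depths of 8370.5, 8343, 18217 and 13010 UMIs. The thinned share in stromal-like cells stood above those in Sertoli-like cells (4.27% to 11.3%) and germ cells (4.72% to 11.3%). That of macrophage-like cells, from 2 of 35 cells, had an interval of 0.700% to 19.2%, which overlapped the stromal-like interval. The part of free RNA in these shares was not tested. Tagln was found in 2.33% of thinned stromal-like cells and in 1.28% of Sertoli-like cells, and Myh11 in 2.33% and 0.851%, shares that small counts do not separate. Myl9 and Tpm1 were each found in 70.3% of stromal-like cells, against 31.1% and 51.9% of Sertoli-like cells.

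For Acta2 and Tagln, a few stromal-like cells carried much of the level. The 5 stromal-like cells with the highest member share, chosen after the values were seen, held 2.52% of the UMIs of the class. Since they were chosen by the share of these same members, some concentration is fixed by the choice. These 5 cells held 46.8% of the Acta2 UMIs of the class, 78.3% of its Tagln UMIs and both of its Cnn1 UMIs, which lay in 1 cell. By contrast they held 13.3% of the Tpm2, 10.4% of the Myl9, 8.13% of the Mylk, 6.57% of the Tpm1 and 2.30% of the Des UMIs. Without them Acta2 was at 82.5 CPM and Tagln at 3.12 CPM in the remaining 181 cells, against 151 and 14.01 CPM with them, and the log2 ratios of peritubular myoid-like over stromal-like cells were 6.37 and 8.52. The value of 8.52 for Tagln rests on its 5 remaining stromal-like UMIs. Tagln then had a log2 ratio of 0.26 over Sertoli-like cells, from 5 and 6 UMIs, too few for the minimum of 20. The count of members at least 2-fold higher was 5 in place of 6, so this drop does not measure a loss of difference. The first of the 5 cells had 2868 UMIs in total, 50 of them from members, and no UMI of the 8 stromal markers, so its place in the class goes against its markers. With 30 principal components 1 of the 5 cells was placed with germ cells, and with variable genes chosen by vst 2 of them were placed with peritubular myoid-like cells. The other 4 cells had 6762 to 13563 UMIs with 9 to 184 stromal marker UMIs, and 2 to 20 UMIs of the myoid marker list. What part doublets or free RNA have in these cells was not tested.

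**Figure D4:**
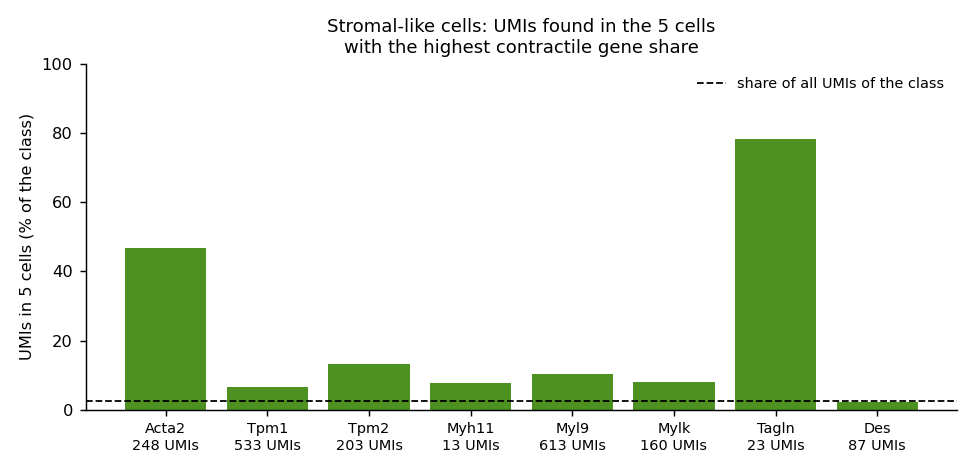
Percent of the UMIs of each contractile gene in stromal-like cells that lay in the 5 cells with the highest contractile gene share, with the number of UMIs of the gene in the class. The dashed line is the share of all UMIs of the class in those cells, 2.52%. Tagln and Acta2 stand at 78.3% and 46.8%, while Des lies at 2.30%.

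Stromal-like cells with an Acta2 UMI also had more of several other members. The 40 such cells among the 172 with 5000 UMIs had 7.40 UMIs of the other 9 members per cell, against 4.16 in the 132 without, a 1.78-fold difference (1.54 to 2.05). Tpm2 was 3.16-fold higher (2.05 to 4.86), Myl9 1.85-fold (1.46 to 2.33), Mylk 1.68-fold (1.05 to 2.63) and Tpm1 1.35-fold (1.03 to 1.76), and all 9 Tagln UMIs lay in the cells with Acta2. Those 9 Tagln UMIs came from 4 cells. For Des the value was 1.13-fold (0.516 to 2.31). These intervals leave out the spread between cells. In the 24 cells with 1 Acta2 UMI, the other 9 members had a mean of 5 UMIs with an SD of 3.82 over cells. Of the 5 members tested, 1 passed 2-fold, against 2.36% of 4753 genes. The fold was 1.77 within the first stromal cluster and 1.80 within the second. Actb was 1.49-fold higher in the same cells, whereas Vim, Col1a1 and Dcn were at 0.927, 0.936 and 1.005. Germ cell markers were 3.02-fold higher, from 11 and 12 UMIs, Sertoli markers at 0.750-fold, and the myoid marker list 1.55-fold higher. The part of cell mixing in the difference was not tested.

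The mean of the other 9 members was higher at each step of Acta2 UMIs, but the median was not. The mean was 4.16 UMIs in 132 cells without Acta2, with an SD of 2.49 over cells, and 5 in 24 cells with 1 Acta2 UMI. It was 7.5 in 4 cells with 2, 9.40 in 5 cells with 3 to 5, and 14.1 in 7 cells with 6 or more. The median was 4 both without Acta2 and with 1 UMI, 7 both with 2 and with 3 to 5, and 12 in the last step. The 7 cells of the last step ranged from 7 to 25 UMIs and the cells without Acta2 from 0 to 14, so that the ends overlapped. Of the 5 stromal-like cells with the highest member share, all but the first, which had 2868 UMIs, were kept in these steps and in the comparison before them.

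The stromal-like class contained 2 clusters at a finer resolution, which differed in the level of some members. The first, 123 cells led by Kcnk3, Vcam1, Aqp2, Prlr and Cyp26b1, had 1222 CPM of members in sum (1156 to 1292). The second, 63 cells led by Clec3b, Tppp3, Dpt, Mfap5 and Pi16, had 1018 CPM (939 to 1101). Des went the other way from the sum, at 93.4 CPM (70.8 to 121) in the second and 29.1 CPM (19.6 to 41.5) in the first, a log2 ratio of 1.68 (1.02 to 2.37). Of the 7 members tested, Des was the 1 at least 2-fold higher in the second cluster, against 8.2% of genes, and none was 2-fold lower, against 5.69%. Tpm2 was 1.52-fold higher there (1.14 to 2.02), while Acta2 had a log2 ratio of -0.74 (-1.17 to -0.32), Tpm1 of -0.57 (-0.85 to -0.29) and Myl9 of -0.41 (-0.66 to -0.16). Without the 5 stromal-like cells of the highest member share, 3 of them in the first cluster, Acta2 was at 90.5 CPM in the first and 68.9 CPM in the second cluster, and its interval of -0.96 to 0.15 included no difference. The log2 ratio of Des was then 1.63 (0.97 to 2.33) and that of Tpm2 0.82 (0.38 to 1.27). That of the summed members was -0.16 (-0.31 to -0.01), against -0.26 (-0.40 to -0.12) with the 5 cells. An Acta2 UMI was found in 23.2% of the thinned cells of the first cluster and 23.3% of the second.

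The smooth muscle members were also set against their relatives in other cells, the nonmuscle actins, myosins and tropomyosins. Acta2 and Actg2 together gave 66.5% of all actin UMIs in peritubular myoid-like cells (65.4% to 67.5%), 43.2% in pericyte-marker cells, 6.58% in stromal-like cells (5.81% to 7.42%) and 0.935% in Sertoli-like cells. Tagln gave 94.8% of transgelin UMIs in peritubular myoid-like and 6.12% in stromal-like cells, where Tagln2 was the main transgelin at 213 CPM. Myh11 gave 71.8% and 12.1% of conventional myosin heavy chain UMIs in the same classes. For the tropomyosins the shares of Tpm1 and Tpm2 were 82.3% and 56.0%, and for the regulatory light chains that of Myl9 was 75.6% and 41.3%. The tropomyosin share was also 29.2% in Sertoli-like and 24.4% in germ cells. Counts are per gene, and 21 transcripts are annotated for Tpm1, so its UMIs are not shown to be of a smooth muscle form. Cnn1 gave 16.9% of calponin UMIs in peritubular myoid-like cells, since Cnn2 stood at 851 CPM there. Actb and Actg1 were read in every class, at 719.9 CPM or above for Actb and 585 CPM or above for Actg1.

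**Figure D5:**
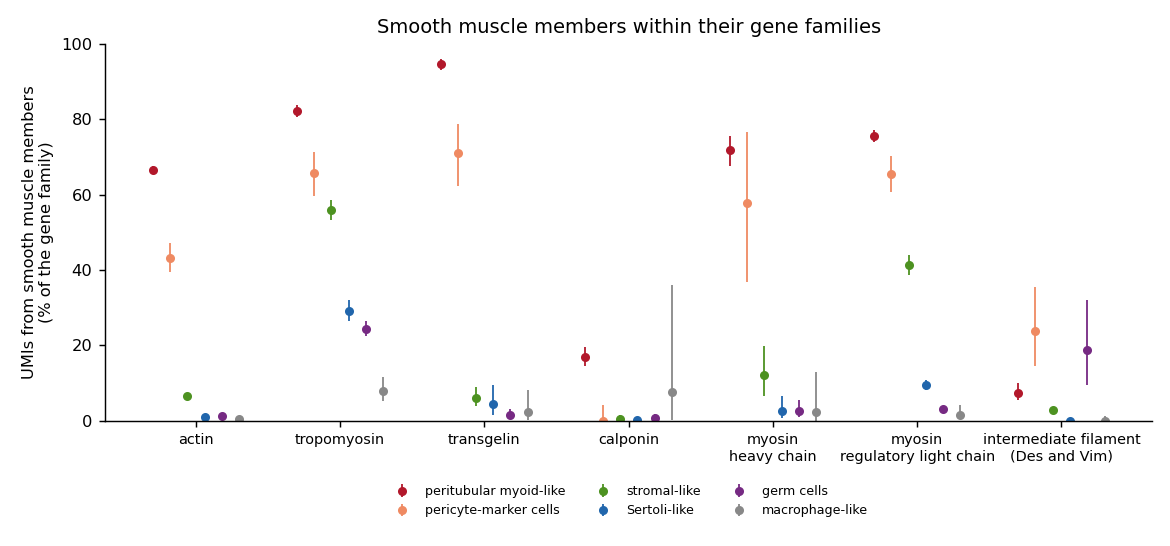
Percent of the UMIs of each gene family that came from its smooth muscle members, by group of cells, with 95% exact binomial intervals. For the actins the share was 66.5% in peritubular myoid-like and 6.58% in stromal-like cells, and for the tropomyosins 82.3% and 56.0%. Counts are per gene and do not tell the transcripts of Tpm1 or Tpm2 apart.

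Of the 19 paralogs listed, 12 had enough UMIs in peritubular myoid-like and stromal-like cells. Among them 6 were at least 2-fold higher in peritubular myoid-like cells, 2 at least 2-fold lower and 4 in between, against 6.9% of all genes higher and 10.1% lower. Cnn2 had a log2 ratio of 2.98 (2.74 to 3.23), Myh9, a nonmuscle myosin heavy chain, of 2.05 (1.501 to 2.61) and Tpm4 of 1.35 (1.11 to 1.59). Actb was at 1.08 (0.97 to 1.19) and Actg1 at 0.35 (0.24 to 0.45). The 2 lower ones were Tagln2, at -1.78 (-2.26 to -1.33), and Vim, the intermediate filament protein vimentin, at -1.43 (-1.57 to -1.29). The muscle actins Acta1 and Actc1 and the kinases Mylk2, Mylk3 and Mylk4 had no UMI in either class.

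Genes that anchor and control the filaments were split. Of 12 listed genes of the contractile apparatus and its anchorage, 10 were tested and 7 were at least 2-fold higher in peritubular myoid-like than in stromal-like cells, with none lower and a median log2 ratio of 1.32. Of all genes, 6.9% were that much higher and 10.1% lower, for this and the following lists. Actn1, which crosslinks actin, had a log2 ratio of 3.02 (2.54 to 3.52), Vcl, the anchor protein vinculin, of 2.57 (2.01 to 3.15) and Flna, filamin A, of 2.41 (2.16 to 2.67). Of 16 listed control genes 11 were tested, 2 were at least 2-fold higher and 9 in between, with a median of 0.22. The 2 were Ppp1r12b, a targeting subunit of myosin phosphatase, at 3.58 (2.84 to 4.39), and Ednrb, an endothelin receptor, with 25 UMIs against none. Both passed the minimum of UMIs through the peritubular myoid-like class alone, Ppp1r12b having 18 UMIs in stromal-like cells. Their count is therefore given as a description. Rhoa had a ratio of -0.21 (-0.46 to 0.03). Of 6 transcription factors listed 4 were tested, and Srf, serum response factor, at 1.82 (0.89 to 2.78), and Tead1 at 1.33 (0.66 to 1.996) were the 2 at least 2-fold higher. Srf, with 27 UMIs against 17, also passed the minimum through the peritubular myoid-like class alone.

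The genes whose level was most like that of the summed members were ranked over the 280 peritubular myoid-like and stromal-like cells, among 6832 genes found in at least 10% of them. Log-normalized levels were used, both for each gene and for the members before they were summed. Fbxl22 came first, with a Pearson's r of 0.861, followed by Col4a4 at 0.812 and Col4a3 at 0.771, which encode chains of basement membrane collagen. Ptgis, the prostacyclin synthase, stood at 0.738, Sh3bgr at 0.715 and Dstn, the actin depolymerizing protein destrin, at 0.713. Nexn, Mir143hg, Csrp2 and Eln, the gene for elastin, completed the 10 at 0.709 to 0.689. Fbxl22 was at 521 CPM in peritubular myoid-like and 5.48 CPM in stromal-like cells, and Col4a3 at 342 and 14.01 CPM. Most of these correlations come from the gap between the classes, and within peritubular myoid-like cells they ran from 0.147 for Csrp2 to 0.679 for Dstn. The members are part of the sum, so their own values, from 0.042 for Des to 0.959 for Acta2, are in part fixed.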

How the data were processed

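The authors deposited 1 matrix of UMI counts per gene and cell barcode for the wild-type library, made with Cell Ranger 2.1.0 on the mm10 build per the labels. The submitters' notes also name Seurat. Counts were used as deposited. The matrix lists no barcode more than once.

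Barcodes with under 500 genes (10), with 10% or more mitochondrial UMIs (36) or called doublets by scrublet (4 of 970, a rate at which the caller may have missed most; the study removed doublets in its own analysis, and whether this was before deposit was not stated) were excluded, leaving 920 cells. These were clustered in Seurat 5.3.0 (R 4.3.3) on 888 variable genes, with 14 principal components and a resolution of 0.5. The 10 members were removed from the variable genes. Clusters were named from marker lists without members, by the mean log-normalized level of the list in the cluster less that in other cells. A name needed at least 3 markers in 10% of the cells, and a cluster led by markers of several types was left unnamed. The names were rebuilt here and may differ from those of the study. Subclusters used a resolution of 1.2.

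UMIs of a class were summed, since cells are not replicates, and divided by the total of the class. Genes with at least 20 UMIs in both classes together were compared, with 2-fold as the mark. A count of 0 was read as a limit of 3 UMIs. Shares of cells with a UMI were taken after thinning to 5000 UMIs, which left out 4 peritubular myoid-like, 14 stromal-like, 20 Sertoli-like and 45 germ cells. Intervals were computed with scipy 1.17.1. The intervals were tested on simulated data for the comparison of peritubular myoid-like with stromal-like cells over 8176 genes, where the true ratio of 186 changed genes lay within its interval in 96.8% of cases. The simulated cells of a class all had the same profile, without the variation between cells of the real data. The test therefore covers counting error only.

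The members, the gene lists and the comparisons were chosen with earlier results of these data known. The named genes were the 10 members, genes of the lists, and the 10 genes outside the lists with the highest correlation with the summed members. Strand and length of the reads were not given in the sources used here. One gene of the control list is not reported here.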

Additional observations from a re-analysis of the deposited data

Results flagged for a closer look

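The 50 barcodes excluded before clustering, which no comparison of the report used, also held UMIs of the contractile genes. The 10 members summed to 430 CPM in them (371 to 496), from 191 UMIs, whereas a count of 0 would allow up to 6.76 CPM. The value lies close to that of Sertoli-like cells, 401 CPM. In the alternatives without a mitochondrial limit and with doublets kept, 36 and 4 of them were clustered with the other cells.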

How the results depend on the processing

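No paired analysis was possible because the series part analysed is 1 library, and for the same reason no replicate could be left out. No result changed direction under any alternative run. With 2000 variable genes chosen by vst all 26 cells of the mixed cluster joined the stromal-like class and 12 stromal-like cells the peritubular myoid-like class. The summed level was 13737 CPM there and 1524 CPM in stromal-like cells, and the log2 ratios of the sum were 3.17 for peritubular myoid-like over stromal-like and 1.93 for stromal-like over Sertoli-like. A mitochondrial limit of 5%, under which 24 cells of the mixed cluster formed a pericyte-like cluster with 13 stromal-like and 6 peritubular myoid-like cells, gave 16402 CPM in peritubular myoid-like cells. Clustering on 1 random set of the UMIs and measuring in the other gave 15694 and 1056 CPM and a ratio of 3.89. Leaving mitochondrial and ribosomal protein genes out of the totals gave 24597 and 1729 CPM, and 1.65 for stromal-like over Sertoli-like cells. Of the alternatives chosen after seeing the data, leaving out cells with 3 or more pericyte marker UMIs gave 16453 CPM in peritubular myoid-like cells. Leaving out the 5 stromal-like cells with the highest member share gave 1002 CPM in stromal-like cells and ratios of 4.002 and 1.32. Leaving out the barcode rich in hemoglobin moved none of these values beyond its interval. Without thinning, the shares of cells with an Acta2 UMI were 31.7% in stromal-like, 14.5% in Sertoli-like and 22.8% in germ cells. The count of members at 2-fold or more in peritubular myoid-like over stromal-like cells was 9 under every alternative, while the share of all genes past that mark was 10.1% with a minimum of 5 UMIs and 15.7% with none. The count for stromal-like over Sertoli-like cells ran from 5 to 8. Of the values of single members, 18 moved beyond their interval and 278 did not, and of the summed levels, ratios, counts and shares 18 moved and 106 did not. Doublets that the caller missed, and levels under 1.83 CPM in stromal-like cells, are beyond what this library can show.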

Other observations

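Control genes of contraction were compared in the 10 pericyte-marker cells. Of 16 listed control genes, 10 had enough UMIs to be compared with stromal-like cells, and 6 were at least 2-fold higher in pericyte-marker cells, against 17.3% of all genes, with a median log2 ratio of 1.34. Ppp1r14a, an inhibitor of myosin phosphatase, was at 1385 CPM in pericyte-marker cells, against 254 CPM in the peritubular myoid-like and 228 CPM in the stromal-like class, and its log2 ratio over stromal-like cells was 2.60 (2.25 to 2.95) in the first and 0.16 (-0.10 to 0.41) in the second. Ednra, an endothelin receptor, stood at 219 CPM in the peritubular myoid-like and 135 CPM in the stromal-like class, at 113 CPM in pericyte-marker cells from 7 UMIs, and had 1 UMI in Sertoli-like cells. The pericyte-marker cells were picked after the values were seen, and these values are a description of 10 cells.

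Some genes of the contractile anchorage were higher in Sertoli-like than in stromal-like cells and others were lower. Of the 12 listed genes, 10 had enough UMIs. At least 2-fold higher in Sertoli-like cells were 3, against 26.4% of all genes, and in stromal-like cells 4, against 13.1%. Vcl was at 118 CPM in Sertoli-like and 22.5 CPM in stromal-like cells, a log2 ratio of stromal-like over Sertoli-like cells of -2.39 (-2.93 to -1.89). Zyx, zyxin, had a ratio of -1.66 (-1.93 to -1.39) and Synm, synemin, of -2.70 (-3.54 to -1.95). Cald1, caldesmon, went the other way, at 4.01 (3.61 to 4.43), as did Actn1 at 1.48 (0.73 to 2.27) and Flna at 1.29 (0.94 to 1.65). Cav1, caveolin, had 120 UMIs in stromal-like cells and none in Sertoli-like cells. Synm, with 16 UMIs in stromal-like cells, and Cav1 each passed the minimum of UMIs through a single class.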
